A study of Mus musculus with 6 samples.

Results

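The common gamma chain pathway was followed here through 10 genes: the receptor genes Il2rb, Il2rg, Il4ra and Il21r, the Janus kinase genes Jak1 and Jak3, the transcription factor genes Stat5a and Stat5b, and the feedback genes Cish and Socs2. Each gene was represented by the array probe set that names it alone, or by the one with the highest mean over all arrays where several did. This gave 8 of the 10 genes, out of 19938 genes measured in all. Il2rg was not named by a listed probe set, and the only probe set that names Jak3 also names Insl3, so neither has a value here.

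The RNA came from splenic T cells of 6 B6D2F1/J mice, an F1 hybrid with a B6 parent, on 1 array per mouse. All recipients had been lethally irradiated and given B6 bone marrow from which T cells had been removed. According to the labels some recipients also received B6 spleen cells and others did not, without naming them by mouse, and no age is given. From then until day 10, 3 mice received intraperitoneal rapamycin, an inhibitor of the kinase mTOR, at 1.5 mg/kg every other day and 3 mice received PBS. On day 10, T cells were isolated from spleen by flow cytometry for CD3. Values are log2 expression, all differences are rapamycin minus PBS, and a mean ± SD is over 3 mice per group.

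The cytokines IL-2, IL-4, IL-7, IL-9, IL-15 and IL-21 signal through receptors that share the common gamma chain, the product of Il2rg, and differ in their other chains. JAK1 on the partner chain and JAK3 on the gamma chain phosphorylate STAT proteins, mainly STAT5 for IL-2, IL-7 and IL-15, STAT6 for IL-4 and STAT3 for IL-21. STAT5 dimers bind DNA and induce survival and cell cycle genes, and also Cish and Socs2, whose products damp cytokine receptor signalling. IL-2 receptors also activate mTOR, and T cells divide and survive in response to these cytokines.

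None of the 8 measured members passed the test between rapamycin and PBS (limma's moderated test, Benjamini-Hochberg adjusted p under 0.05 over 19938 genes). All 8 had an adjusted p of 0.9998, and 0 of 8 had an unadjusted p under 0.05. Among all genes 0.00502% passed and 4.67% had an unadjusted p under 0.05. Differences of the members lay between -0.15 for Il2rb and 0.16 for Cish, with 4 positive, 4 negative and a median of 0.02, against a median of -0.01 over all genes. The median of the members was -0.01 without PBS replicate 1 and -0.03 without rapamycin replicate 2. The outermost bound of their 95% intervals was a 1.47-fold change. The groups did not overlap for 2 of the 8, Il2rb and Jak1, both lower with rapamycin. Groups did not overlap for 9.42% of all genes, with rapamycin lower in 6.28% and higher in 3.14%, so a count of 2 among 8 genes is a description only.

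**Figure D1:**
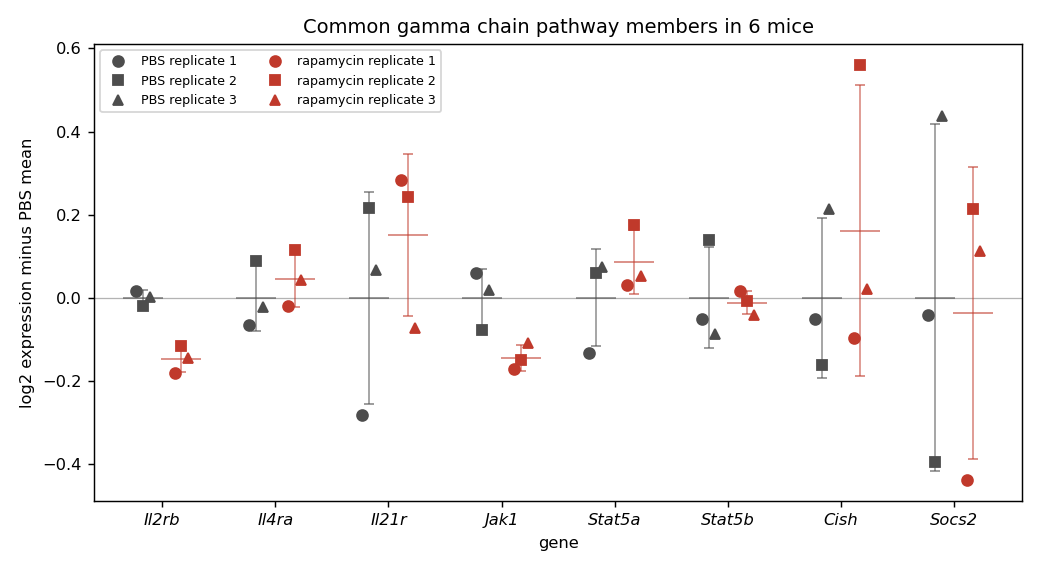
Log2 expression of the 8 measured members minus the PBS mean of each gene (vertical axis), by gene (horizontal axis), with 1 point per mouse, grey for PBS and red for rapamycin, and marker shapes for replicate numbers. Short horizontal lines are group means and bars are the SD over 3 mice. Il2rb and Jak1 show no overlap between groups, while Cish and Socs2 spread most over all 6 mice, with rapamycin replicate 2 the highest mouse for Cish at 9.36.

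The sorted population carried its defining transcript at close levels. Cd3e, a subunit of the T cell receptor complex, ranged from 12.78 to 12.92 over the 6 mice. Mtor differed by -0.07 (SE 0.10). Over the whole table, the array medians lay between 6.03 and 6.17. Rapamycin replicate 1 held the lowest value of the 6 mice for 34.7% of the genes in the upper part of the expression range, a share that was 9.42% to 16.8% in the other mice. In a sorted bulk sample, fewer cells of a type and less RNA per cell cannot be told apart.

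Markers of other cells were measured in all 6 samples. The mean of 9 neutrophil genes was 10.39, 10.12 and 9.02 in PBS replicates 1 to 3 and 10.89, 9.78 and 10.32 in rapamycin replicates 1 to 3. It was lowest in PBS replicate 3 and, within the rapamycin group, in replicate 2. Differences were positive for all 9 neutrophil genes (median 0.51). In that list Lcn2, a granule protein, had the highest mean and Mpo, myeloperoxidase, the lowest. The mean of 7 measured B cell genes of 8 was 5.08 to 5.18 in PBS mice and 5.01 to 5.12 in rapamycin mice, with Cd79b highest and Ms4a1 lowest in the list. Of these genes 3 had positive and 4 negative differences. Cd79b averaged 7.38 in PBS mice and 6.84 in rapamycin mice, without overlap (limma, unadjusted p of 0.000913 and adjusted p of 0.747). The other B cell genes had means of at most 5.35, under the array medians, so the list mean says little about B cells. The mean of 5 measured NK cell genes of 6 was 5.26 to 5.61 and 5.28 to 5.42 in the same order of groups, kept in the next ranges, with Eomes, which activated CD8 T cells also express, highest and Klra8 lowest. The mean of 8 macrophage and monocyte genes was 7.96 to 8.35 and 7.73 to 7.97, with Lyz2 highest and Ms4a7 lowest. Of these genes 3 had positive and 5 negative differences, from -1.34 to 0.29 with a median of -0.01, so the list did not move as 1. The mean of 4 measured erythroid genes of 7 was 6.01 to 6.51 and 6.29 to 6.82, with Slc4a1 highest and Epb42 lowest. The mean of 5 measured T cell genes of 6 was 11.14 to 11.33 and 11.11 to 11.31, with Cd3e highest and Cd247 lowest. Of these T cell genes 1 had a positive and 4 had negative differences, from -0.19 to 0.07 with a median of -0.03.

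**Figure D2:**
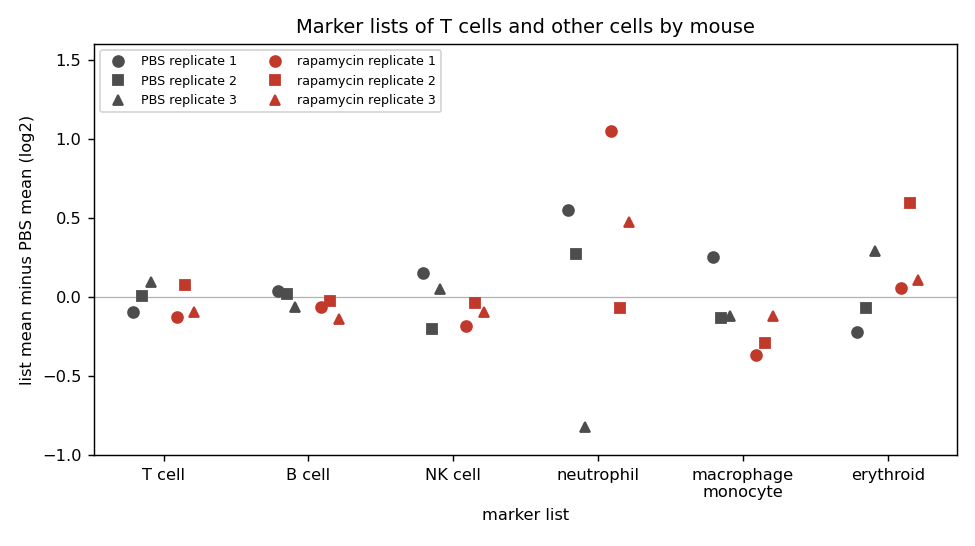
Mean log2 level of 6 marker lists minus the PBS mean of that list (vertical axis), by list (horizontal axis), with 1 point per mouse, grey for PBS and red for rapamycin. The neutrophil list spreads most, from 9.02 in PBS replicate 3 to 10.89 in rapamycin replicate 1, and the T cell and B cell lists spread least.

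Among the receptor genes, Il2rb showed the tightest groups. Il2rb encodes the beta chain that IL-2 and IL-15 receptors share and that carries much of their signalling. It measured 12.86, 12.83 and 12.85 in PBS replicates 1 to 3 and 12.67, 12.73 and 12.70 in rapamycin replicates 1 to 3, the order used for every gene that follows. The highest rapamycin value stayed under the lowest PBS value. The difference was -0.15 (SE 0.07, 95% interval -0.31 to 0.01), a level 1.11-fold lower, with an unadjusted p of 0.0682 in limma's moderated test. It lay between -0.16 and -0.13 in every alternative fit, including each fit without 1 mouse. NK cells also express Il2rb. Of the 5 measured NK genes, 4 had negative differences (median -0.24), and with the NK list mean as a covariate the Il2rb difference was -0.13. The list is a weak measure of NK cells. Ncr1, Klre1 and Klra8 had means of 4.19, 3.86 and 3.73, under the array medians of 6.03 to 6.17. Eomes, the strongest at 9.25, is also expressed by activated CD8 T cells.

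Il4ra and Il21r are next to each other on chromosome 7 in the RefSeq annotation, with 0 annotated genes between them. Il4ra encodes the IL-4 receptor alpha chain, which also serves the IL-13 receptor. It measured 9.14, 9.30 and 9.19 with PBS and 9.19, 9.33 and 9.25 with rapamycin. The groups overlapped throughout this narrow range, with a difference of 0.05 (SE 0.08, 95% interval -0.14 to 0.23), which was 0.01 to 0.09 over the fits without 1 mouse.

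Il21r encodes the IL-21 receptor chain, present on activated T cells and B cells. It measured 9.52, 10.02 and 9.87 with PBS and 10.08, 10.04 and 9.73 with rapamycin. PBS replicate 1 was the lowest mouse, and rapamycin replicate 3 lay below PBS replicates 2 and 3. The difference was 0.15 (SE 0.15, 95% interval -0.18 to 0.48), and it was 0.01 without PBS replicate 1.

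Jak1 encodes the kinase bound to the partner chains of all receptors of this family. It measured 11.79, 11.65 and 11.75 with PBS and 11.56, 11.58 and 11.62 with rapamycin. The highest rapamycin mouse lay just under the lowest PBS mouse. The difference was -0.14 (SE 0.08, 95% interval -0.32 to 0.03), a level 1.11-fold lower, with an unadjusted p of 0.0902 in limma's moderated test. It stayed negative in every alternative fit, from -0.18 to -0.11. An exact permutation test over 3 against 3 mice gave its smallest possible p of 0.1 for both Il2rb and Jak1.

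Stat5a and Stat5b encode the STAT5 factors and are also adjacent genes, on chromosome 11. Stat5a measured 9.30, 9.49 and 9.51 with PBS and 9.46, 9.61 and 9.49 with rapamycin. The groups overlapped, with rapamycin replicate 2 highest and PBS replicate 1 lowest, and the difference was 0.09 (SE 0.09, 95% interval -0.12 to 0.29). It was 0.02 without PBS replicate 1 and 0.04 without rapamycin replicate 2. Stat5b measured 9.14, 9.33 and 9.10 with PBS and 9.20, 9.18 and 9.15 with rapamycin. All 3 rapamycin mice lay inside the PBS range, and the difference was -0.01 (SE 0.09, 95% interval -0.21 to 0.18).

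Cish encodes CIS, an SH2 protein that STAT5 induces and that inhibits cytokine and T cell receptor signalling. It measured 8.75, 8.63 and 9.01 with PBS and 8.70, 9.36 and 8.82 with rapamycin. Rapamycin replicate 2 stood above all other mice, and the other 2 rapamycin mice lay inside the PBS range. The difference was 0.16 (SE 0.17, 95% interval -0.23 to 0.56), and it was -0.04 without rapamycin replicate 2. The highest Cish mouse of each group, PBS replicate 3 and rapamycin replicate 2, was also the mouse with the lowest neutrophil list mean of its group. With that list mean as a covariate the Cish difference was 0.34 (limma, unadjusted p of 0.0293 and adjusted p of 0.582). In that fit 1595 of the 19938 genes had an unadjusted p under 0.05 in limma, against 932 in the main fit. Among the 8 members Cish was the only 1 of these. The part of neutrophils in the Cish values was not tested.

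Socs2 encodes a SOCS family protein, induced by STAT5 and best known for limiting growth hormone signalling. It measured 7.46, 7.10 and 7.94 with PBS and 7.06, 7.71 and 7.61 with rapamycin. It had the widest spread of the 8 members, with rapamycin replicate 1 and PBS replicate 2 lowest and PBS replicate 3 highest. The difference was -0.04 (SE 0.23, 95% interval -0.56 to 0.48), and with the neutrophil list mean as a covariate it was 0.21. Socs2 was the only member with a further probe set, which measured 6.41, 6.002 and 6.35 with PBS and 6.33, 6.54 and 6.17 with rapamycin. The 2 probe sets differed in direction, with 0.09 for the weaker one.

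Relations over the mice were computed for the 4 of 6 chosen gene pairs in which both genes had a value, 3 pairs of members and Cish with Il2ra, the gene of an IL-2 receptor chain outside the 10. Cish and Socs2 ranked the 6 mice in similar order, with Pearson's r of 0.72 (exact permutation p = 0.107, adjusted 0.363) and Spearman's rho of 0.89 (exact permutation p = 0.0333, adjusted 0.133). Without PBS replicate 3 and rapamycin replicate 2 the r was 0.90 over 4 mice, and after centring each group on its mean it was 0.78 over 6. The adjusted values did not pass. For Stat5a and Stat5b r was 0.17 (exact permutation p = 0.693, adjusted 0.693) and rho was 0.03 (exact p = 1, adjusted 1), with r of -0.26 without the 2 farthest mice. For Il4ra and Il21r r was 0.59 (exact permutation p = 0.232, adjusted 0.363) and rho 0.54 (exact p = 0.297, adjusted 0.594), and r was -0.08 without PBS replicate 1 and rapamycin replicate 2, on which the relation therefore rests. For Il2ra and Cish r was 0.54 (exact permutation p = 0.272, adjusted 0.363) and rho 0.37 (exact p = 0.497, adjusted 0.663), and r turned to -0.74 without the same 2 mice. The genes whose values followed the Socs2 profile most closely over the 6 arrays were Stx8, a membrane fusion protein, with r of 0.998, Slc35a1, the transporter of CMP-sialic acid, with 0.994, and Bola2, an iron-sulfur cluster protein, with 0.993. A total of 133 genes had an r above 0.95 with Socs2 over these 6 points.

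STAT5 dimers recognise the letters TTCNNNGAA, which read the same on both strands. This motif was searched in windows of 300 bases, 250 before and 50 after each annotated gene start (RefSeq sequences, build GRCm38.p6). Windows were matched for 8 of the 10 members, with 10 starts in all. Il2rb and Socs2 were not matched. The motif occurred in 1 of the 8 genes, Cish, and in 8.30% of all 32851 windows. Cish held it 2 times, which 0.457% of all windows match with 2 or more. The Cish window is shown from its first base to the end of the second motif, because it is the one member promoter with the motif, with motifs in capitals (chr9:107296409-107296678, plus strand).

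Cish: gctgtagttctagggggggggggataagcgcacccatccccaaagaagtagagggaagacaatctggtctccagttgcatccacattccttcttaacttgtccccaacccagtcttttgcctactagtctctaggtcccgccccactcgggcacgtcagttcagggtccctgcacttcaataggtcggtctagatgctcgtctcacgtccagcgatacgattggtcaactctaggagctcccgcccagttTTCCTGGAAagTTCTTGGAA

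The first base of the Cish motifs lies at positions 1 and 12 counted from the annotated start, with 2 bases between them. Of the 35 other pathway genes that were matched, 4 held the motif, or 11.4%, against 9.55% of all genes matched. These 4 are shown with 6 bases on either side, all on the minus strand, to set their motif letters beside those of Cish. Il7r lies at chr15:9530004-9530024, Socs3 at chr11:117969506-117969526, Il4 at chr11:53617328-53617348 and the 3 Bcl6 motifs, all before 1 of its 2 starts, at chr16:23981437-23981457, chr16:23981391-23981411 and chr16:23981357-23981377.

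Il7r: aggagcTTCAGGGAAtaccaa
Socs3: ccagccTTCTTAGAAgggagg
Il4: cctgttTTCATGGAAacacac
Bcl6 motif 1: cgcggcTTCCTGGAAagttac
Bcl6 motif 2: ggagtgTTCTGTGAAatcctt
Bcl6 motif 3: actacgTTCCGGGAAtgagag

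The other Bcl6 start held 1 further motif. Motif 1 of Bcl6 has the same letters as the first Cish motif. None of these 5 genes passed the test. Differences were 0.16 for Cish, -0.02 for Il7r, -0.07 for Socs3, 0.00 for Il4 and 0.16 for Bcl6, a repressor that STAT5 is known to silence in T cells. Socs3 and Il4 are named for the motif, after their values had been seen. A match of letters describes the sequence and does not show binding.

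The rest of the pathway was covered by 42 further measured genes in 6 lists. None of the 42 passed (limma, adjusted p under 0.05), and 2 had an unadjusted p under 0.05, both higher, a share near the 4.67% of all genes. Differences were positive in 29 of 42, with a median of 0.05, against 44.7% of all genes and a median of -0.01. Without rapamycin replicate 2 they were positive in 20 of 42 and 0 had an unadjusted p under 0.05.

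**Figure D3:**
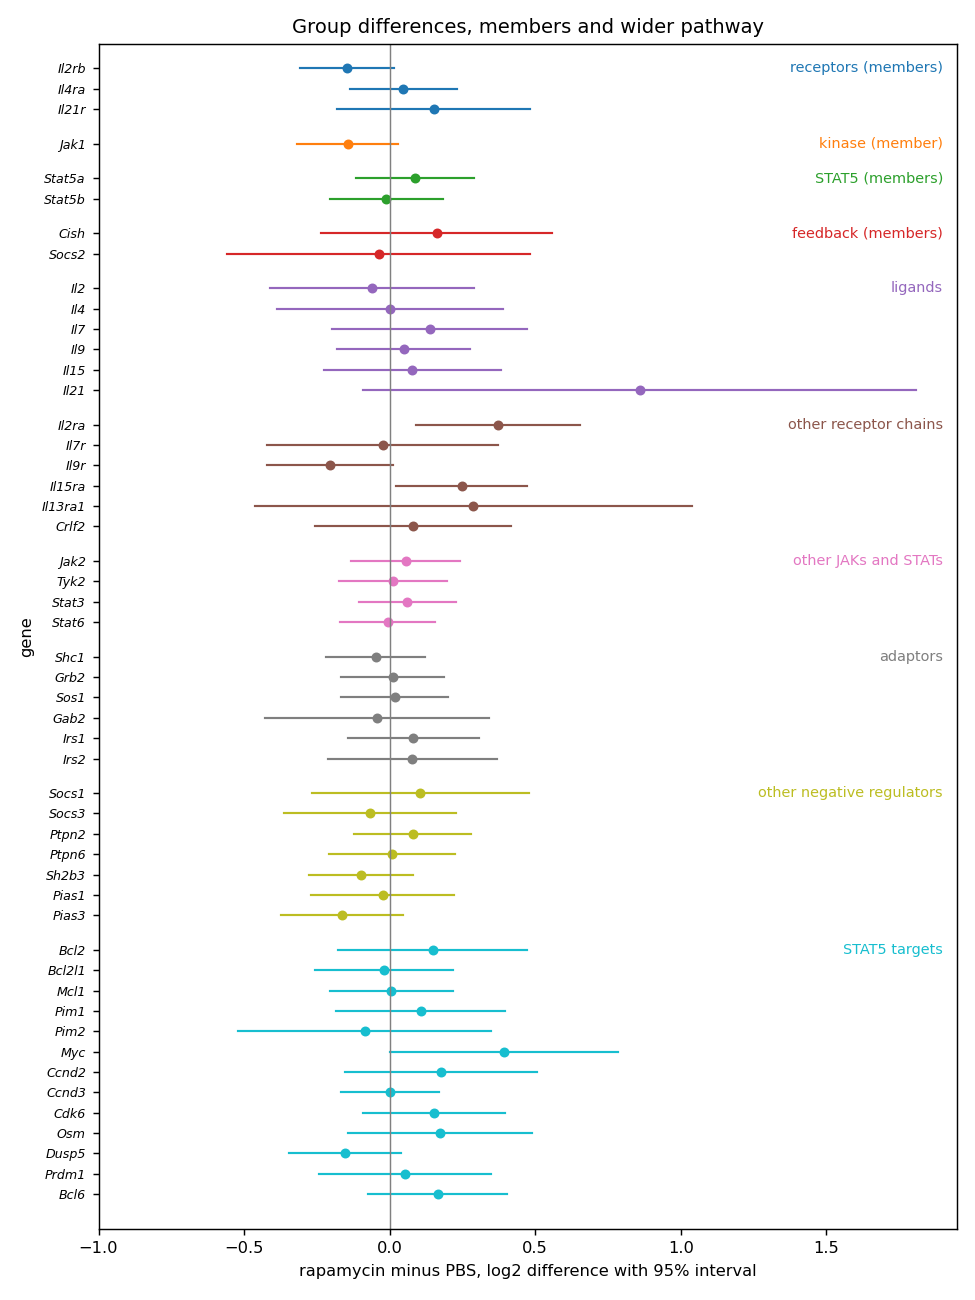
Group difference in log2 expression, rapamycin minus PBS (horizontal axis), for the 8 measured members and 42 further pathway genes (vertical axis, coloured by role). Points are differences and lines are 95% intervals of limma's moderated test. Only the intervals of Il2ra and Il15ra lie wholly above 0, and none lies wholly below it.

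The alpha chains of the IL-2 and IL-15 receptors were the 2 genes with an unadjusted p under 0.05. Il2ra encodes CD25, which gives the IL-2 receptor its high affinity and is itself induced by IL-2 through STAT5. It measured 10.33, 10.63 and 10.37 with PBS and 10.68, 11.04 and 10.73 with rapamycin. Every rapamycin mouse lay above every PBS mouse, by 0.37 on average (SE 0.12, 95% interval 0.09 to 0.65), a ratio of 1.29. It did not pass in limma (adjusted p of 0.982). The difference was 0.26 without rapamycin replicate 2 and 0.26 to 0.47 over the fits without 1 mouse.

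Il15ra encodes the chain that binds IL-15 and presents it to neighbouring cells. It measured 8.28, 8.27 and 8.24 with PBS and 8.40, 8.72 and 8.42 with rapamycin. The groups did not overlap, and the difference was 0.25 (SE 0.10, 95% interval 0.02 to 0.47), a ratio of 1.19. It was 0.15 without rapamycin replicate 2, the highest mouse. The alpha chains thus lay on the other side of 0 from Il2rb, the beta chain of the same 2 receptors, at -0.15, and no test was made between the chains.

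Among the other receptor chains, Il9r, the IL-9 receptor gene, measured 5.54 ± 0.05 with PBS and 5.33 ± 0.15 with rapamycin, and its groups did not overlap. Its mean over all arrays, 5.44, was under the array medians of 6.03 to 6.17. Il7r, the IL-7 receptor chain that naive and memory T cells need for survival, measured 10.71, 10.33 and 10.11 with PBS and 10.06, 10.43 and 10.58 with rapamycin. Its mice spread alike in both groups, and the difference was -0.02 (SE 0.17). Of the 6 other receptor chains, 4 had positive and 2 negative differences. Groups did not overlap for 3 of all 42 wider pathway genes, against 9.42% of all genes. All 3 are in this list, and the count is a description only.

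Of the 6 ligand genes, 5 had positive differences, with Il4 at 0.00, and 0 had an unadjusted p under 0.05. All but Il21 had low means, from 4.03 for Il7 to 5.36 for Il2, under the array medians of 6.03 to 6.17. The count of signs therefore says little. Il21, a cytokine of follicular helper and other activated CD4 T cells, measured 6.52, 8.06 and 8.06 with PBS and 7.84, 8.88 and 8.50 with rapamycin. PBS replicate 1 stood far below the other 5 mice, and the difference of 0.86 (SE 0.42, 95% interval -0.09 to 1.81) was 0.35 without it. Il2, the growth factor made by activated T cells, measured 5.39 ± 0.05 with PBS and 5.33 ± 0.34 with rapamycin. Its rapamycin mice ranged from 5.01 to 5.69, on both sides of the PBS mice. Il7 and Il15, made mainly by stromal and myeloid cells, differed by 0.14 (SE 0.15) and 0.08 (SE 0.13). Both depended on single PBS mice: without PBS replicate 1 the differences were 0.32 and 0.23, and without PBS replicate 2 they were 0.03 and -0.03.

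The other kinases and STAT genes lay close between the groups. Their 4 measured differences ranged from -0.01 to 0.06. Stat3, used by the IL-21 receptor, differed by 0.06 (SE 0.07), Jak2 by 0.05 (SE 0.08) and Tyk2 by 0.01 (SE 0.08). Jak2 and Tyk2 encode kinases of other cytokine receptors. Of 6 adaptor genes, 4 were positive, within -0.05 to 0.08. Irs1 and Irs2, adaptors of the IL-4 and insulin receptors, differed by 0.08 each, and Shc1, which links receptors to Ras, by -0.05. For Irs1 the mean of all its probe sets gave -0.02.

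Among 7 other negative regulators, 3 had positive and 4 negative differences. Socs1, a SOCS protein that blocks JAK kinases, measured 8.07, 8.24 and 8.44 with PBS and 8.11, 8.72 and 8.24 with rapamycin. It had its highest value in rapamycin replicate 2, as Cish did, and its difference of 0.10 (SE 0.16) was -0.08 without that mouse. Pias3, an inhibitor of STAT3, differed by -0.16 (SE 0.09), Sh2b3, the adaptor LNK, by -0.10 (SE 0.08) and Ptpn2, a phosphatase of JAK1 and JAK3, by 0.08 (SE 0.09).

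The list of 13 STAT5 target genes had 10 positive differences, a median of 0.11 and 0 genes with an unadjusted p under 0.05. The 10 include Bcl6, at 0.16, which STAT5 is known to silence, so counts over this list do not measure STAT5 output. Myc, a growth regulator, measured 9.54, 9.96 and 9.72 with PBS and 10.01, 10.51 and 9.87 with rapamycin. Its groups overlapped, and the difference was 0.39 (SE 0.17, 95% interval -0.00 to 0.79, unadjusted p of 0.0502 in limma's moderated test). It was 0.20 without rapamycin replicate 2, its highest mouse. Dusp5, a phosphatase that limits ERK, lay the other way, at 9.62 ± 0.07 with PBS and 9.46 ± 0.10 with rapamycin. Bcl6 measured 7.56 ± 0.07 with PBS and 7.72 ± 0.18 with rapamycin.

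Rapamycin replicate 2 had the highest value of all 6 mice for 11 of the 13 targets, against 16.9% of all genes and 23.8% of the genes in the upper part of the expression range. It was the highest mouse for 24 of the 42 wider pathway genes, which include the 13 targets, so the pattern was not particular to targets. It was also highest for Cish and Il2ra, but not for the chosen probe set of Socs2, so for 13 of 16 genes when these 3 are counted. The weaker probe set of Socs2 was highest in this mouse, at 6.54. The median target gene lay 0.35 above its PBS mean in this mouse, and -0.02 and 0.00 from it in rapamycin replicates 1 and 3. In the same mouse the median was 0.38 for the other receptor chains and 0.24 for the ligands. It was 0.12 for the other kinases and STAT genes, 0.11 for the other negative regulators and 0.00 for the adaptors. Without this mouse 6 of the 13 targets had positive differences, and the median was -0.01. This mouse had the lowest neutrophil list mean of its group, 9.78, and the highest erythroid list mean of all 6 mice, 6.82. PBS replicate 3 had a lower neutrophil list mean, 9.02, and was the highest mouse for 0 of the 13 targets. The median target gene lay 0.07 above its PBS mean there. With the neutrophil list mean as a covariate, 12 of the 13 targets had positive differences and the median was 0.15. The NK list mean as a covariate also gave 12 of 13, with a median of 0.065. A list mean over 6 arrays is a rough covariate. The part of neutrophils, NK cells or erythroid cells in the pattern was not tested. The pattern was noticed after the values had been seen. The label of rapamycin replicate 2 differs from those of the other rapamycin mice in its replicate number alone.

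**Figure D4:**
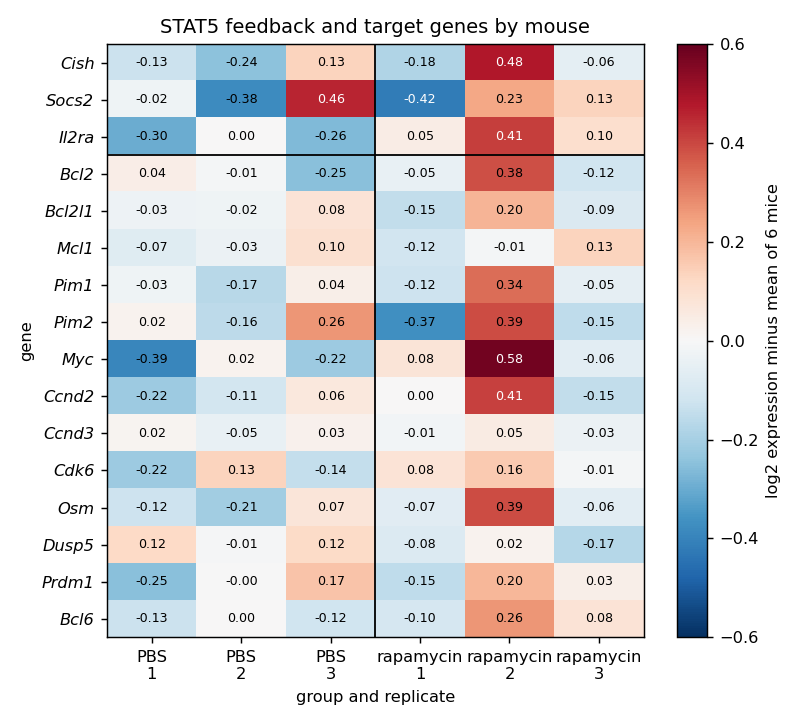
Log2 expression minus the mean of all 6 mice (colour and printed value) for Cish, Socs2, Il2ra and 13 STAT5 target genes (rows), by group and replicate (columns). Rapamycin replicate 2 is the highest mouse for 13 of the 16 genes, and the median target gene lies -0.02 and 0.00 from its PBS mean in the other 2 rapamycin mice. The same mouse is highest for 24 of the 42 wider pathway genes, which include the 13 targets.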

How the data were processed

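RNA of sorted splenic T cells of 6 mice was measured on Affymetrix whole-transcript arrays. The submitters' processing notes name Affymetrix Expression Console with RMA. The deposited values are log2 expression per probe set after RMA, which subtracts background and equalises the arrays, so a shift shared by most genes is removed and differences of weakly expressed genes are compressed. The sources used here give neither versions nor a genome build.

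Of 35556 probe sets, 21789 had 1 gene symbol in the platform's probe table, 1621 had several and 12146 had none or were not listed. Gene identifiers of 21698 were found in the RefSeq table, which updated 0 symbols. The probe set with the highest mean stood for a gene. Differences were tested with limma 3.58.1 in R 4.3.3 (lmFit and eBayes, two-sided, 8.44 degrees of freedom) over 19938 genes, without a filter, which was checked on simulated data. Relations and figures used Python 3.11.15 with scipy 1.17.1 and matplotlib 3.10.9. The labels call the samples biological replicates, and 3 mice per group limit the precision.

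All 10 members, up to 3 genes of each pathway list by smallest p, Il2, Il2ra, Il7r, Socs1, Cd3e and Mtor, the 3 genes most like the member of widest range, and the highest and lowest marker of each cell list were named by rule. The members and lists were chosen with earlier results of these data known. Alternatives covered the probe set rule, low values, scaling, the variance model, array weights, the replicate block, marker covariates and each mouse left out. Some items are not reported here.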

Additional observations from a re-analysis of the deposited data

How the results depend on the processing

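None of the 8 members and none of the wider pathway genes measured passed in any of 18 alternative fits, and Il2rb, Il4ra, Il21r, Jak1, Stat5a, Il2ra and Il15ra kept their direction in each. The count of all genes that passed was 1, became 0 with all probe sets tested, with the replicate block and with the NK cell covariate, and ranged from 0 to 7 without 1 mouse. The median of the members was 0.10 with the neutrophil covariate and ranged from -0.026 to 0.082 without 1 mouse. Socs2 turned to 0.027 with the mean of its probe sets, 0.092 with the weaker one, 0.068 with array weights, 0.21 with the neutrophil and 0.16 with the NK covariate. Il2 turned to 0.016, 0.065 and 0.022 with array weights, the neutrophil and the NK covariate, Il7r to 0.013 with array weights and 0.081 with the NK covariate, Cd3e to 0.0093 with the neutrophil covariate, and Irs1 to -0.024 and -0.13 with the mean and the weaker of its probe sets. Without 1 mouse, differences ranged from -0.038 to 0.29 for Cish, -0.23 to 0.18 for Socs2, -0.056 to 0.058 for Stat5b, -0.033 to 0.23 for Il15, 0.033 to 0.32 for Il7, -0.24 to 0.10 for Il2, -0.16 to 0.14 for Il7r, -0.059 to 0.15 for Irs2, -0.14 to 0.0018 for Mtor, -0.078 to 0.23 for Socs1 and -0.042 to 0.045 for Tyk2. The cause was not tested. With an intensity trend in the variance, Il2rb and Jak1 had unadjusted p of 0.0183 and 0.0447 in limma. The labels do not say whether the replicate numbers pair mice. Same-numbered mice had correlations of deviations of 0.09, -0.19 and 0.19, and 2 of 6 correlated best with their own number. With 3 mice per group these values cannot settle pairing. The replicate block leaves group differences as they are in this balanced design. With it the unadjusted p of Il2rb in limma was 0.112, at -0.15, against 0.0682 in the main fit. For Il21 and Il2ra it was 0.00134 and 0.00266, against 0.0707 and 0.0156. Their adjusted p with the block was 0.534 and 0.635. The fits for named genes other than members, and counts without rapamycin replicate 2, were added after seeing the data.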
